A study of Mus musculus with 564 samples.

Results

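The elements described here lie at the genes of 9 transcription factors of the macrophage lineage, Spi1, Runx1, Maf, Mef2c, Mitf, Tfec, Bcl6, Foxp1 and Bhlhe40. A cis-regulatory element (CRE) was assigned to one of these genes when its centre lay within 25 kb of any mm10 RefSeq transcription start of that gene, which gave 109 of the 59190 CREs of the dataset. Foxp1 held 37 of them, Mitf 29, Mef2c 9, Runx1 8, Bcl6 8, Spi1 7, Tfec 7, Bhlhe40 3 and Maf 1, and no CRE was assigned to 2 genes. The annotated starts of Foxp1 span 494.8 kb and those of Mitf 184.8 kb, whereas Maf and Bhlhe40 have 1 annotated start each. The Spi1 -31.0 kb and -25.5 kb elements lie nearer to the start of Slc39a13 and the Spi1 +16.4 kb element nearer to that of Mybpc3, and the remaining 106 lie nearest to a start of the gene they were assigned to.

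The cells, bone marrow-derived macrophages (BMDMs), were grown in culture from the marrow of wild type, young adult male mice of the C57/BL6 strain. Those of every group had a pre-treatment of 1 h, either with the vehicle DMSO or with a clinical kinase inhibitor (CKI, 58 in all) at the EC50 for its intended target, and were then left unstimulated (UT) or exposed to 10 ng/mL of lipopolysaccharide (LPS, a ligand of TLR4) or interleukin 4 (IL-4) for 0.5, 1, 2 or 4 h. ChIP-seq read out H3K27ac, an acetylation of histone H3 carried by promoters and enhancers in use, and values are normalized read counts per CRE. DMSO gave 9 groups of 2 libraries, and the CKIs gave 474 groups of 1 library and 36 of 2, so a single CKI rarely has a replicate error of its own. The title of the UT samples gives time 0 and their treatment label 4 h with no stimulus, and the same UT libraries start both time courses.

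Lineage transcription factors bind the enhancers of a cell type and keep its genes accessible, and in macrophages PU.1, the product of Spi1, is the factor without which the lineage does not form. RUNX1, MAF and MEF2C act beside it at macrophage enhancers, MITF and TFEC are related basic helix-loop-helix leucine zipper factors that bind the same E-box, and BCL6, FOXP1 and BHLHE40 act mainly as repressors. LPS drives an inflammatory response through NF-kB, AP-1 and interferon, whereas IL-4 acts through STAT6 and drives alternative activation.

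Elements are named by their gene and their distance from the start of its reference mRNA, with a minus sign for positions upstream. For each gene the element at a start and those with the largest rise and fall after each stimulus were named by rule. The Spi1 -7.9 kb and +1.2 kb, Runx1 -126.9 kb, Mef2c +68.2 kb and Mitf -29.5 kb elements were chosen after their values were seen. So were the Tfec +1.8 kb and +51.7 kb, Bcl6 +5.5 kb and +11.7 kb, and Foxp1 -4.8 kb, -8.6 kb, +241.3 kb and +378.3 kb elements. The 5 windows below are the central 300 bases of elements on which the results turn, the Foxp1 element that fell most after LPS, Foxp1, Mitf and Bcl6 elements that rose after LPS and a Runx1 element that moved in opposite directions. They were read from the forward strand of GRCm38.p6 (mm10), and capitals mark matches to a PU.1, RUNX, MEF2, E-box, FOX, STAT, AP-1, NF-kB or C/EBP motif in either orientation.
Foxp1 -0.3 kb (chr6:99435454-99435753): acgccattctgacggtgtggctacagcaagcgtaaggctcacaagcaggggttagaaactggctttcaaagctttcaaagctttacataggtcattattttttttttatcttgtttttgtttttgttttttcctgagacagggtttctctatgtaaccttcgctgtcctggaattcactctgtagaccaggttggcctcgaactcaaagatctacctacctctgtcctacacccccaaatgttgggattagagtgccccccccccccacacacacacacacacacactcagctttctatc
Foxp1 +378.3 kb (chr6:99056894-99057193): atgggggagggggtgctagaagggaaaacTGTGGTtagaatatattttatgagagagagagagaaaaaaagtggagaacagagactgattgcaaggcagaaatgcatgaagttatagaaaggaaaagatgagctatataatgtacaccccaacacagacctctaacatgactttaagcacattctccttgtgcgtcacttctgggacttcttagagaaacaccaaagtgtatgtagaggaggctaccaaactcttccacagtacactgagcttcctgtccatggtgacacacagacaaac
Mitf -128.3 kb (chr6:97863340-97863639): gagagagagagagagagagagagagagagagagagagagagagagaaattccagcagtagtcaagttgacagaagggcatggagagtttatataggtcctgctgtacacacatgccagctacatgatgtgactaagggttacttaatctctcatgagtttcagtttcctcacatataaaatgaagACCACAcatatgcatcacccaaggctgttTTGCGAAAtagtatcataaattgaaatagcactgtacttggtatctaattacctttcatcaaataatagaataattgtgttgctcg
Bcl6 -10.8 kb (chr16:23999531-23999830): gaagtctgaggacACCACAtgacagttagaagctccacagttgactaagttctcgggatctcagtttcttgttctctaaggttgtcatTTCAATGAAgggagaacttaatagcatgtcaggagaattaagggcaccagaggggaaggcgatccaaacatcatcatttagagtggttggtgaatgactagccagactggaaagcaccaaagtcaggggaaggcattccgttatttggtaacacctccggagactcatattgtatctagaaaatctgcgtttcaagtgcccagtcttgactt
Runx1 -17.7 kb (chr16:92714860-92715159): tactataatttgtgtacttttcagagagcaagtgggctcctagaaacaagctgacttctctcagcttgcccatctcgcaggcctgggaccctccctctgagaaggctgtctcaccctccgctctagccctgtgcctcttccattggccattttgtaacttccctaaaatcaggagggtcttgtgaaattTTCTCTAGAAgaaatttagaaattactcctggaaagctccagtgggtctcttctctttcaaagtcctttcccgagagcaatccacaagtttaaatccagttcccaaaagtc

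These matches are letters in a window and not bound sites. No printed match overlaps another. The STAT patterns were TTCNNNGAA and TTCNNNNGAA, which differ in their gap and both read the same on the opposite strand. The shares that follow are descriptions and were not tested. The first was in 5 of the 16 member windows with more H3K27ac after IL-4 (31.2%) and in 9.4% of all 59190 windows. The second was in 4 of the 16 (25%), those of Tfec +51.7 kb, +19.7 kb and +14.5 kb and Runx1 -17.7 kb, and in 9.21% of all. In the 45 windows higher after LPS the 2 patterns were in 13.3% and 11.1%. The PU.1 pattern GAGGAAGT, or ACTTCCTC on the opposite strand, was in 4 of the 16 (25%), in 2 of 45 windows higher after LPS (4.44%) and in 9.11% of all. The 4 were Tfec +51.7 kb, +8.8 kb and +1.8 kb and Foxp1 +241.3 kb, so the elements of 1 gene, Tfec, weigh in these small counts. The C/EBP pattern TTGCNNAA, or TTNNGCAA, was in 12 of the 45 windows higher after LPS (26.7%) against 14.7% of all. It was also in 4 of the 19 lower after LPS (21.1%), and in 2 of the 16 higher (12.5%) and 3 of the 8 lower (37.5%) after IL-4. AP-1, TGANTCA, was in 9 of the 45 (20%) and in 0 of the 16 higher after IL-4, against 20.2% of all. NF-kB, GGANTTTCC or GGAAANTCC, was in 2 of the 109 member windows (1.83%) and in 2.36% of all. The RUNX pattern TGTGGT, or ACCACA, was in 22.9% of the member windows, in 1 of the 16 higher after IL-4 (6.25%) and in 25% of all. MEF2, CTANNNNTAG, was in 6.42% of the member windows and in 5.07% of all, the E-box CACGTG in 2.75% and 5.66%, and FOX, TGTTTAC or GTAAACA, in 5.5% and 3.69%. The Foxp1 -0.3 kb window held a match to none of the motifs searched, which says only that these letters are not in the central 300 bases. The Runx1 -17.7 kb window holds 1 match, to the STAT pattern with a gap of 4.

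The libraries were checked as a whole before members were compared. Totals of normalized read counts ranged from 5923680 to 6873670 in the 18 DMSO libraries and from 4066890 to 12391400 in the 546 CKI libraries, and because the authors scaled each library they do not give sequencing depth. DMSO replicates correlated across CREs with r between 0.959 and 0.982. As a measure of signal over background, the strongest 10% of CREs were set against the weakest 10%, and the ratio of their medians lay between 53 and 134 in DMSO libraries and between 3.34 and 67.2 in CKI libraries. Start elements of 7 of 10 macrophage markers were among the CREs, with UT means of 226 to 992, and those of Csf1r, Adgre1 and Cd68 were not. No start element of the 5 T cell, 5 B cell and 3 erythroid markers was among them, and those of S100a8, Flt3 and Col1a1 stood at 12.5, 25.5 and 3.5. Because macrophage markers were also missing, an absent start element does not show an absent cell type. In bulk chromatin, a mark on fewer cells and less of the mark per cell cannot be told apart. The labels do not say whether the DMSO replicates were separate cultures, so p-values measure the spread between these samples, which may be technical.

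After LPS, acetylation moved at most of these genes, and the direction differed between genes and along single genes. Of 107 members tested, 64 were called (59.8%), against 53.5% of all 50697 CREs tested. Members were called higher more often than the background, 45 of 107 (42.1%) against 29%, and lower less often, 19 of 107 (17.8%) against 24.6% (these shares are descriptions). The median of the largest log2 difference of each element was 0.93 over the members and 0.37 over all CREs. Differences are on the log2(value + 5) scale, which understates those of low CREs. A call needed an adjusted p under 0.01 in a moderated F-test (limma, Benjamini-Hochberg over all CREs) and an absolute log2 difference from UT over 1 at 1 or more times. Of the 45 called higher, 16 lay at Foxp1, 15 at Mitf and 6 at Bcl6, and of the 19 called lower, 9 lay at Foxp1, 4 at Runx1 and 4 at Mef2c. The count fell to 41 with starts of curated transcripts only and to 40 with a distance of 10 kb, both of which leave fewer members.

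**Figure D1:**
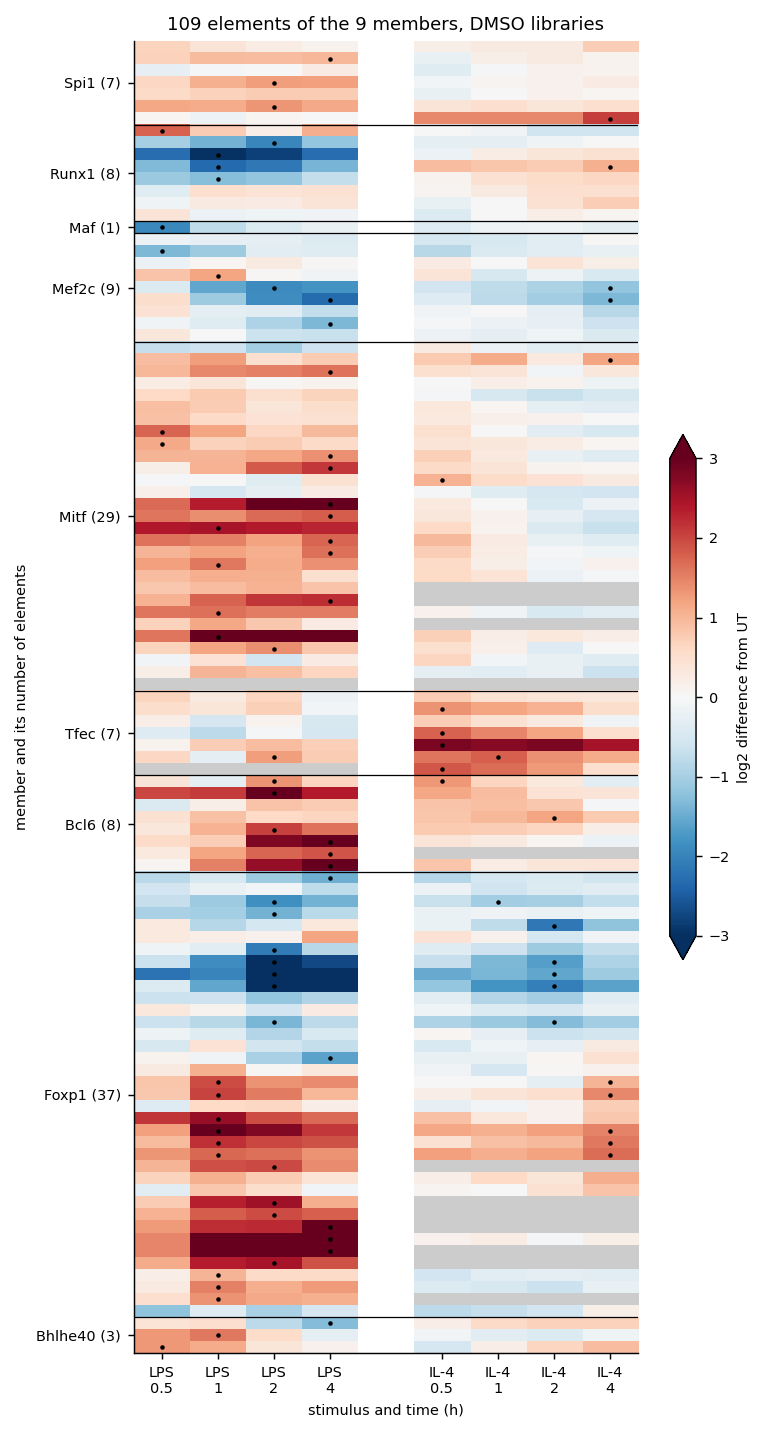
Log2 difference from UT, on the log2(value + 5) scale, at each time after LPS and after IL-4 (columns) for the 109 elements (rows, ordered along each gene from upstream to downstream), DMSO libraries. Grey marks elements under the filter, and a point marks the time of the largest difference of a called element; Foxp1 holds a block of falls and 2 blocks of rises after LPS.

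Spi1, which encodes PU.1, kept a high level at the element taken by rule as its start element. This -13.9 kb element covers an upstream annotated start, on chromosome 2 from 91079987 to 91085607, and not the reference start. The +1.2 kb element, from 91095858 to 91099806, spans the reference start, but its centre lies 1.1 kb from the nearest start, outside the 1 kb limit. Its mean over the DMSO libraries was 1442, against 2064 at -13.9 kb. The -13.9 kb element had 2046 and 2118 normalized read counts in UT, 1709 and 1829 at 0.5 h of LPS, and 2625 and 2361 at 4 h. The 4 h libraries lay above both UT libraries, but the log2 difference of 0.26 did not reach the threshold, and it was -0.14 after quantile normalization. Within the gene, the -7.9 kb element rose from 1028 and 1042 to 2526 and 2426 at 2 h (log2 difference 1.25 ± 0.08, SE). The smaller +4.9 kb element rose from 69 and 78 to 183 and 202 at 2 h (1.33 ± 0.18), with no overlap between UT and any LPS library. Of 7 Spi1 elements, 3 were called higher after LPS and none lower.

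Runx1, which encodes a partner of PU.1 in blood cell formation, lost acetylation along the intron between its distal and proximal starts. The -104.1 kb element, in an intron, had 491 and 435 counts in UT, 94 and 87 at 0.5 h of LPS, 57 and 52 at 1 h, 55 and 70 at 2 h and 117 and 71 at 4 h. It fell by 2.97 ± 0.21 on the log2 scale at 1 h (adjusted p 3.43e-14 from limma), and every LPS library lay below both UT libraries. The -126.9 kb element, which spans the distal start, fell from 1126 and 1138 to 274 and 302 at 2 h (-1.96 ± 0.12). The element at the proximal start, -0.5 kb, went the other way between 0.5 h and 1 h, from 424 and 421 to 745 and 805, with 530 and 560 in UT, and its largest log2 difference of 0.50 was under the threshold. Upstream of the gene, the -150.6 kb element rose from 29 and 31 to 117 and 111 at 0.5 h (1.77 ± 0.25) and stood at 33 and 38 at 2 h and 60 and 79 at 4 h.

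The start elements of Maf and Mef2c fell early and stood closer to UT at 4 h. Maf encodes a factor associated with macrophage identity and IL-10 expression, and its only element covers its start on chromosome 8 from 115705188 to 115708792. It had 651 and 643 counts in UT, 175 and 156 at 0.5 h of LPS, 328 and 438 at 1 h, 424 and 560 at 2 h and 478 and 639 at 4 h. The fall by 1.94 ± 0.15 at 0.5 h was called (adjusted p 2.91e-13 from limma), and at 4 h the log2 difference was -0.23, with both libraries still below UT. The start element of Mef2c, +20.8 kb, fell from 498 and 544 to 198 and 207 at 0.5 h (-1.34 ± 0.13) and stood at 379 and 430 at 4 h. The intronic Mef2c +70.4 kb element took longer, with 225 and 224 in UT, 277 and 379 at 0.5 h, 120 and 91 at 1 h and 43 and 40 at 4 h (-2.30 ± 0.21). Its neighbour at +68.2 kb fell from 380 and 355 to 97 and 92 at 2 h (-1.90 ± 0.18). These neighbouring elements were lowest late, after the start element had begun to return.

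Mitf, which encodes a regulator of lysosomal and osteoclast genes, gained acetylation over much of its length. Of 28 elements tested, 15 were called higher and none lower. The -128.3 kb element, in an intron, had 31 and 24 counts in UT, 86 and 117 at 0.5 h, 187 and 139 at 1 h, 294 and 337 at 2 h and 508 and 425 at 4 h. Its log2 difference reached 3.86 ± 0.19 at 4 h (adjusted p 3.08e-18 from limma), and it was higher at each later time. The start element at -164.9 kb peaked early, from 295 and 240 in UT to 934 and 880 at 0.5 h (1.75 ± 0.12), and stood at 420 and 398 at 2 h. The -29.5 kb element rose from 12 and 7 to 166 and 130 at 1 h (3.41 ± 0.24) and kept a level of 160 and 130 at 4 h. The element with the largest fall, -203.1 kb, went from 62 and 67 to 28 and 31 at 2 h and did not pass the test (adjusted p 0.0280 from limma).

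Bcl6, which encodes a repressor of inflammatory genes, rose at most of its elements. The +5.5 kb, -10.8 kb and +11.7 kb elements were highest at 2 h or 4 h. The +5.5 kb element, in an intron on chromosome 16 from 23979365 to 23987279, had 553 and 520 counts in UT, 645 and 712 at 0.5 h, 1124 and 1095 at 1 h, 2342 and 2153 at 2 h and 1650 and 1712 at 4 h. It rose by 2.06 ± 0.09 at 2 h. The upstream -10.8 kb element went from 13 and 18 to 156 and 239 at 2 h (3.28 ± 0.25), and the +11.7 kb element from 27 and 21 to 256 and 258 at 4 h (3.18 ± 0.23). Neither overlapped UT at any LPS time. Of 8 elements, 6 were called higher. The start element, at 196 and 189 in UT, reached 319 and 397 at 1 h. Its log2 difference of 0.87 was under the threshold, and with replicate 1 of that group left out it was 1.03 and called.

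Foxp1, a forkhead repressor that is lowered as monocytes become macrophages, split by position. From -86.9 kb to +193.5 kb, 9 elements were called lower after LPS and none higher, and from +223.0 kb to +415.8 kb, 16 were called higher and none lower. At the reference start, the -0.3 kb element on chromosome 6 from 99433837 to 99437369 had 840 and 949 counts in UT, 655 and 679 at 0.5 h, 305 and 296 at 1 h, 33 and 34 at 2 h and 76 and 53 at 4 h. Its upstream neighbours went with it, the -4.8 kb element from 310 and 317 to 6 and 29 at 2 h (-4.04 ± 0.33) and the -8.6 kb element from 210 and 239 to 16 and 27 (-3.14 ± 0.24). The -4.8 kb element was at 56 and 73 already at 0.5 h, when the -0.3 kb element was at 655 and 679. In each of these elements every LPS library lay below both UT libraries.

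Further along the gene, towards its downstream end, the called elements rose. The +384.6 kb element, in exon sequence outside the coding part, had 3 and 8 counts in UT, 30 and 18 at 0.5 h, 166 and 150 at 1 h, 106 and 144 at 2 h and 256 and 239 at 4 h, a log2 difference of 4.63 ± 0.26 at 4 h (adjusted p 1.49e-17 from limma). The +378.3 kb element rose from 22 and 12 to 371 and 303 at 4 h (3.99 ± 0.22). A second block peaked at 1 h, where the +241.3 kb element rose from 9 and 9 to 106 and 120 (3.07 ± 0.28). The start element with the highest DMSO mean, +407.4 kb at an internal start, rose from 452 and 486 to 910 and 1013 at 1 h (1.03 ± 0.10). With replicate 2 at 1 h left out (0.95), or replicate 1 of UT (0.97), it was not called.

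**Figure D2:**
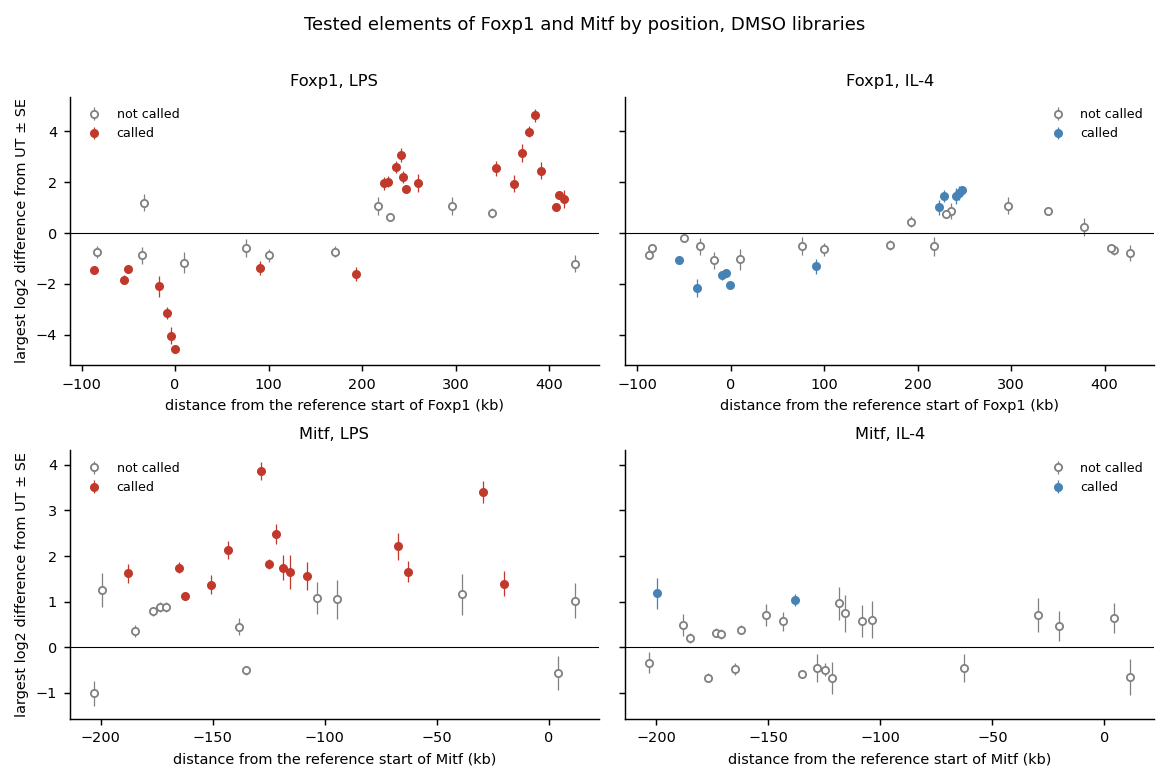
Largest log2 difference from UT (± SE) of each tested element against its distance in kb from the reference start, for Foxp1 (top) and Mitf (bottom) after LPS (left) and IL-4 (right), DMSO libraries. Filled points were called; at Foxp1 the called falls lie up to +193.5 kb and the called rises from +223.0 kb on, and at Mitf no fall was called.

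Bhlhe40, a repressor of IL-10 in activated immune cells, changed direction with time. Its start element, -0.5 kb, had 365 and 370 counts in UT, 470 and 514 at 0.5 h, 503 and 539 at 1 h, 211 and 208 at 2 h and 135 and 156 at 4 h of LPS. The libraries of the first 2 times lay above UT and those of the last 2 below, with log2 differences of 0.50 at 1 h and -1.31 ± 0.13 at 4 h. The +5.1 kb element rose from 22 and 14 to 69 and 58 at 1 h (1.59 ± 0.31) and was at 16 and 12 at 4 h. Tfec, the myeloid relative of Mitf, had 1 called element of 6, at +19.7 kb, from 11 and 6 to 33 and 21 at 2 h (1.24 ± 0.40), with a call that was lost without replicate 2 at 1 h, replicate 1 at 2 h, replicate 1 at 4 h or replicate 2 of UT, where log2 differences were 0.97 to 1.24.

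**Figure D3:**
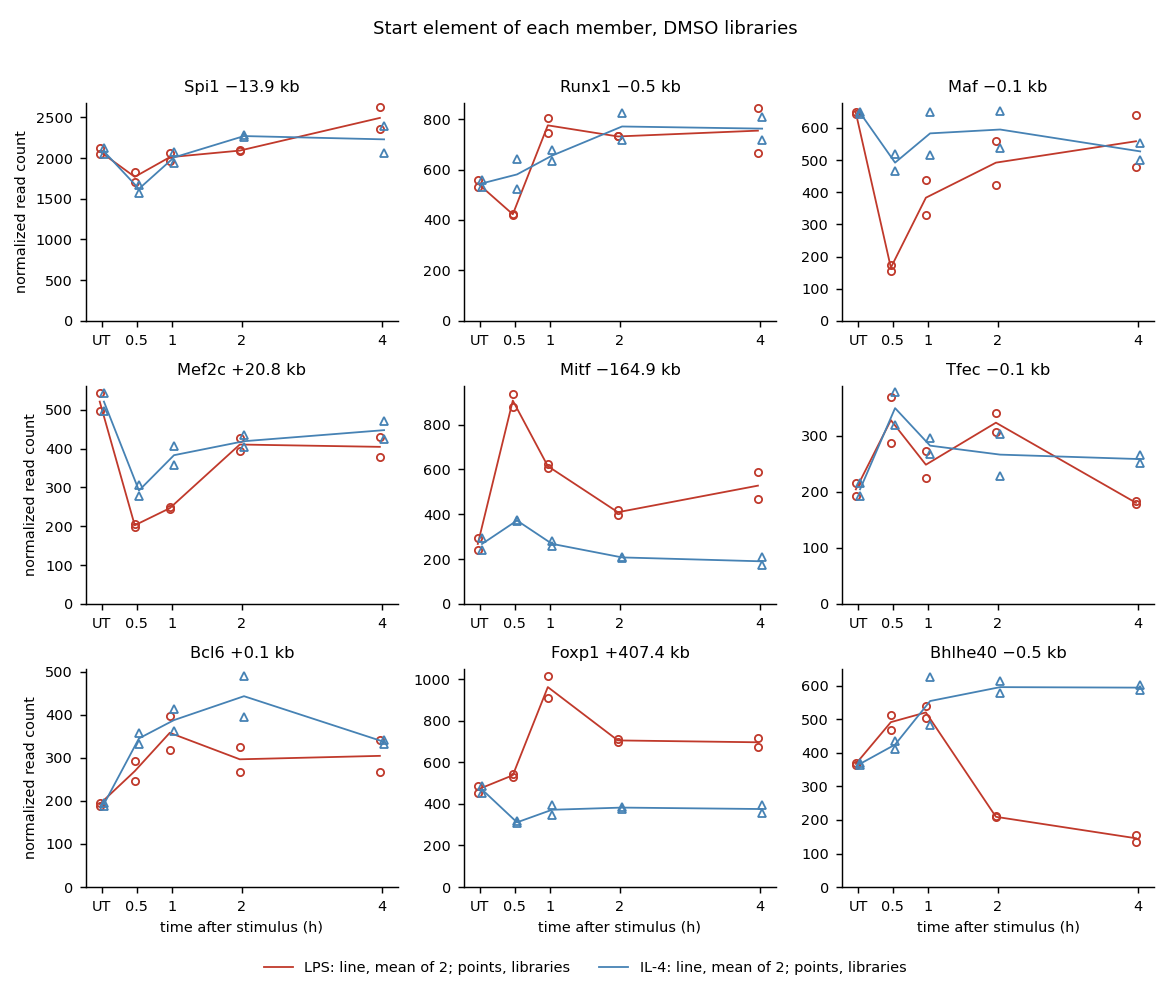
Normalized read counts at the start element of each member over time (h) after LPS (red circles) and IL-4 (blue triangles), DMSO libraries; points are the 2 libraries of a group, lines join the means, and UT is shared by both courses. Maf dips at 0.5 h of LPS, Mitf peaks at 0.5 h, Foxp1 peaks at 1 h and Bhlhe40 falls below UT from 2 h. The Spi1, Mef2c, Mitf and Foxp1 elements cover other annotated starts and not the reference start.

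IL-4 moved fewer elements than LPS, and the start elements mostly stayed under the threshold, as they did over all genes. Of the 9 start elements 1 was called, and of 11117 tested over all coding genes 483 were called higher and 201 lower. Of 97 members tested, 24 were called (24.7%), against 24.7% of all 47018 CREs tested. Of these, 16 were higher (16.5%, against 13.6% of all) and 8 lower (8.25%, against 11%), and the median of the largest log2 differences was 0.32 over the members and 0.21 over all CREs. Tfec had 5 of the 16 called higher and Foxp1 5, and the 8 called lower were 6 at Foxp1 and 2 at Mef2c. With starts of curated transcripts only, or with a distance of 10 kb, fewer elements entered and the count was 14, with no share over all CREs computed.

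Tfec, described as an IL-4 response gene of macrophages, rose at 5 of its 7 elements. The +14.5 kb element, in an intron, had 39 and 37 counts in UT, 303 and 294 at 0.5 h of IL-4, 256 and 305 at 1 h, 274 and 322 at 2 h and 260 and 217 at 4 h. It rose by 2.82 ± 0.14 at 0.5 h (adjusted p 1.16e-23 from limma), and no IL-4 library came near UT. The +8.8 kb element was more transient, from 110 and 138 in UT to 428 and 442 at 0.5 h (1.78 ± 0.13) and 163 and 194 at 4 h. The start element, -0.1 kb, went from 193 and 216 to 320 and 379 (0.76 ± 0.13) and was not called.

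Runx1 and Spi1 each had 1 element called higher after IL-4. The Runx1 -17.7 kb element, which had 285 and 266 counts in UT, reached 613 and 545 at 4 h (1.06 ± 0.10), and with replicate 1 at 4 h left out the difference was 0.97 and not called. After LPS the same element went to 50 and 52 at 1 h (-2.32 ± 0.23), so all 8 IL-4 libraries lay above UT and all 8 LPS libraries below it. The Spi1 +16.4 kb element, in an intron of Spi1, rose from 48 and 59 to 248 and 232 at 4 h of IL-4 (2.07 ± 0.16), while its LPS libraries, between 34 and 65, overlapped UT. Of the 9 start elements, that of Bcl6 was called after IL-4, from 196 and 189 to 491 and 395 at 2 h (1.17 ± 0.12).

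Falls after IL-4 were at Foxp1 and Mef2c. The Foxp1 -0.3 kb element went to 459 and 343 counts at 0.5 h, 244 and 267 at 1 h, 208 and 218 at 2 h and 273 and 306 at 4 h (-2.04 ± 0.12 at 2 h), above the LPS libraries at 2 h and 4 h. The Foxp1 -35.7 kb element fell most, from 34 and 34 to 6 and 2 at 2 h (-2.15 ± 0.34), and had 26 and 19 at 2 h of LPS. The Mef2c +70.4 kb element reached 88 and 83 at 4 h (-1.34 ± 0.17), between UT and LPS. In the internal block of Foxp1, the +247.1 kb element rose from 211 and 225 to 743 and 682 at 4 h of IL-4 (1.69 ± 0.10) and to 762 and 701 at 1 h of LPS (1.72 ± 0.13). Both courses use the same UT libraries, so the values are given side by side only.

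**Figure D4:**
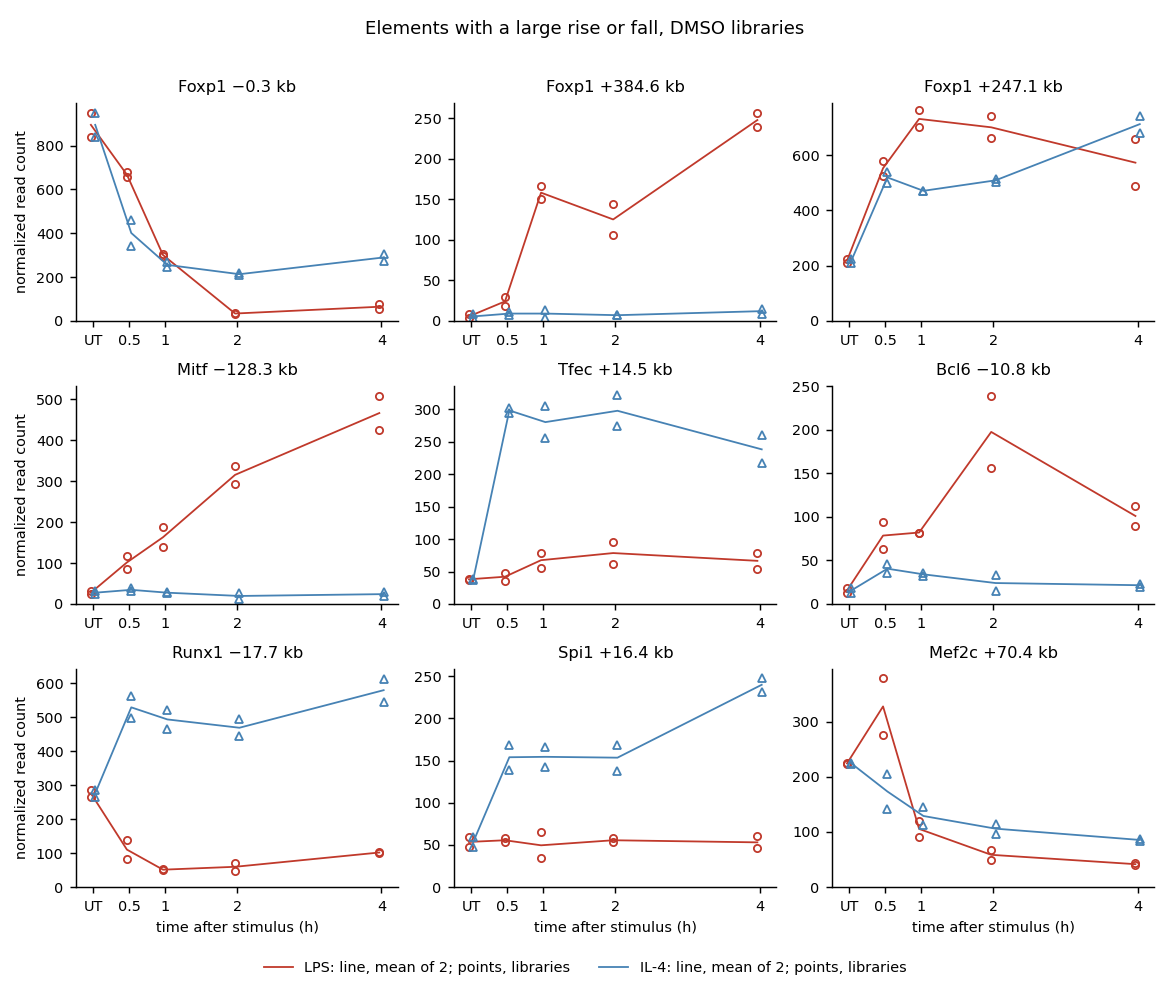
Normalized read counts over time (h) at 9 elements with a large rise or fall, DMSO libraries, with LPS as red circles and IL-4 as blue triangles; points are the 2 libraries of a group and lines join the means. Tfec +14.5 kb and Spi1 +16.4 kb rise after IL-4, Mitf -128.3 kb and Foxp1 +384.6 kb after LPS, and Runx1 -17.7 kb moves in opposite directions.

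The stimuli were compared directly in the DMSO libraries, time by time. LPS and IL-4 differed at 63 of 107 members tested (58.9%), against 58.4% of all 50587 CREs tested. LPS was higher at 45 (42.1%, against 29.2% of all) and lower at 18 (16.8%, against 29.2%). The count was 38 with starts of curated transcripts only and 38 with 10 kb, where fewer elements entered and no share over all CREs was computed. The largest differences towards LPS were 4.03 ± 0.25 at Mitf -128.3 kb (508 and 425 counts against 20 and 28 at 4 h) and 3.91 ± 0.34 at Foxp1 +384.6 kb (256 and 239 against 15 and 9). Those towards IL-4 were -3.20 ± 0.16 at Runx1 -104.1 kb (57 and 52 against 519 and 561 at 1 h) and -3.15 ± 0.17 at Runx1 -17.7 kb (50 and 52 against 465 and 521). At the Bhlhe40 start element the log2 difference was -2.00 at 4 h, with 135 and 156 counts against 602 and 588. All 4 called Tfec elements were lower after LPS than after IL-4, and of the 9 Mef2c elements the +36.0 kb element alone was called (1.66 ± 0.34), and not without replicate 1 of IL-4 at 1 h (1.24).

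Sums over all elements of a gene were tested to see how far these movements balance. After LPS, 3 of the 9 sums were called, against 32.6% of the sums of all 15272 genes tested. They were Bcl6, from 884 and 818 in UT to 3209 and 3179 at 2 h (1.90 ± 0.08), Maf (-1.94 ± 0.14) and Bhlhe40, from a UT mean of 394 to 159 and 180 at 4 h (-1.20 ± 0.11). The Foxp1 sum, with 4592 and 4853 in UT and 4427 and 4116 at 4 h, differed by at most 0.28 although 25 of its 37 elements were called. Quantile normalization gave 5 called sums, and so did a distance of 10 kb, with no share over all genes computed. After IL-4, 1 sum was called, against 8.68% of all, that of Tfec, from 893 and 867 to 2113 and 2225 at 0.5 h (1.30 ± 0.07).

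The start elements of other macrophage and myeloid transcription factors gave a frame for these values. Of 26 such genes, 21 had a start element, and after LPS 2 were called higher and 8 lower, where the members gave 2 higher and 3 lower of 9 and all 11184 tested genes 1448 and 1670. Ets2 (1.07) and Foxp4 (2.78) rose. Cebpa, Klf2 and Bhlhe41, a relative of Bhlhe40, fell by 2.54, 2.02 and 2.59 on the log2 scale, and Tfeb, a relative of Mitf and Tfec, by 1.74. After IL-4, 3 were called higher and none lower, where the members gave 1 higher and none lower of 9 and all 11117 tested genes 483 and 201. The 3 were Batf3 at 1.86, Foxp4 at 1.08 and Runx2 at 1.03. Across the 9 DMSO group means, the start elements most like that of Mitf were those of Wsb1 (r = 0.987) and Plek (0.979), the one most like Maf was that of Zfp710 (0.984), and the one most like Bcl6 that of Pam16 (0.981), out of 11185 genes compared; these are descriptions over 9 points.

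In the CKI libraries the members moved in the same directions as in DMSO. The response was fitted over all 314 CKI libraries after LPS and UT, with the compound as a term. All 64 members called in DMSO had the same sign there, as had 99.8% of all CREs called in DMSO, and the median ratio of the response to that in DMSO was 0.639 for the members and 0.609 for all. In that fit 40 of 109 members were called (36.7%), against 28.9% of all CREs, 25 of them higher and 15 lower. After IL-4, 24 of 24 had the same sign (99.6% for all), with a median ratio of 0.575 (0.584 for all), and 9 of 109 were called (8.26%, against 8.84% of all). With an absolute log2 difference over 0.5 as the threshold the counts were 87 and 37 of 109. Shares over all CREs were not computed at that threshold.

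Several elements moved the same way in every CKI measured at the time of their largest difference in DMSO. The Foxp1 -0.3 kb element was lower than UT at 2 h of LPS in 55 of 55 CKIs, with log2 differences from -3.94 (AZD8186) to -1.66 (Omipalisib) and a median of -3.08. Maf was lower at 0.5 h in 58 of 58, from -2.81 (Mubritinib) to -0.52 (Talmapimod), and its fitted fall of 1.81 ± 0.05 stood close to that in DMSO. Runx1 -104.1 kb was lower at 1 h in 57 of 57, and Bhlhe40 -0.5 kb at 4 h in 55 of 55. Among rises, Mitf -128.3 kb was higher at 4 h in 55 of 55, from 0.87 (Lenvatinib) to 4.29 (Volasertib), and Bcl6 +5.5 kb at 2 h in 55 of 55, from 0.56 (AZD2014) to 2.32 (Refametinib).

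After IL-4, Tfec +14.5 kb was higher than UT at 0.5 h in 57 of 58 CKIs, with a median log2 difference of 1.73, and in SGI1776 it was -0.30. The same SGI1776 library had the sign of DMSO at 82.6% of all CREs called in DMSO at that time, where the median over CKIs was 90.65%. JAK kinases carry the IL-4 signal, and the 6 JAK inhibitors, chosen after values were seen, had log2 differences at 0.5 h of 1.30 (Filgotinib), 1.52 (Momelotinib), 1.59 (BMS911543), 1.83 (Ruxolitinib), 1.98 (Pacritinib) and 2.02 (Tofacitinib). Taken as the mean over the 4 times minus UT, the response of this element differed most to the low side in Filgotinib, by -1.15 from that in the other 57 CKIs, which was the lowest of the 58 and was not called. Mitf -199.5 kb, called after IL-4 in DMSO on 10 and 7 counts in UT and 27 and 24 at 4 h, was higher in 23 of 55 CKIs, and its fitted difference was 0.07 ± 0.11; in DMSO its call was lost in 8 of the 10 fits with 1 library left out.

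**Figure D5:**
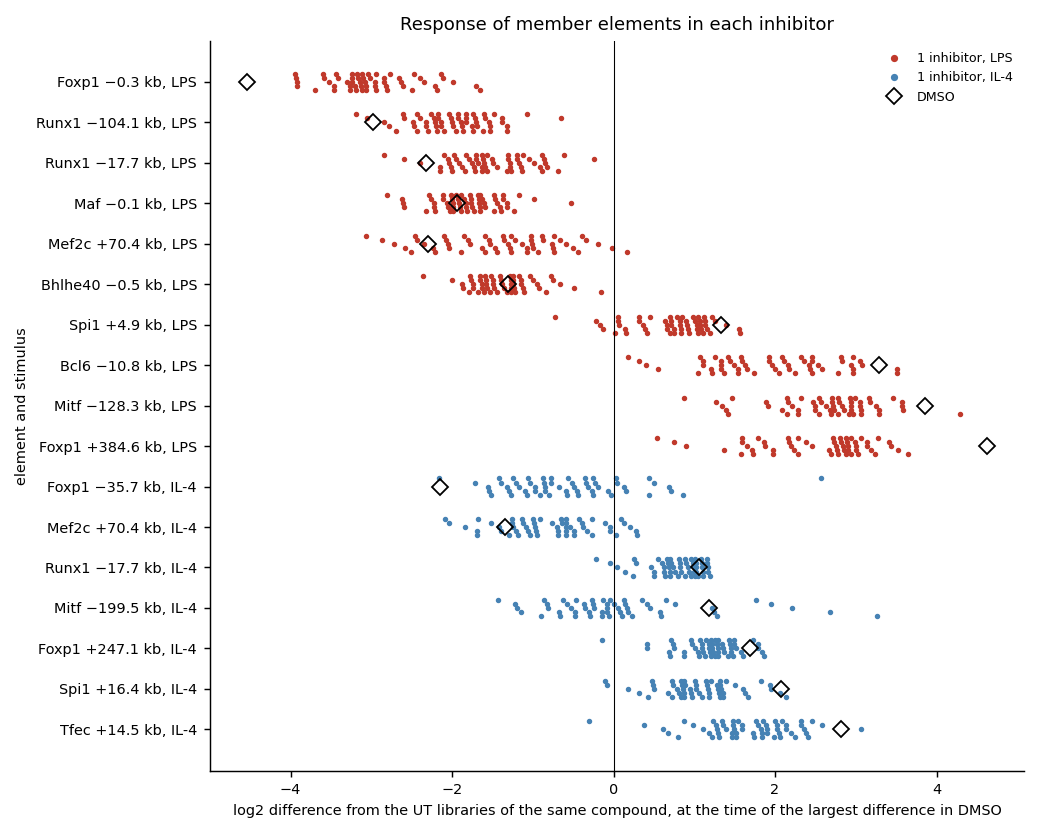
Log2 difference from the UT libraries of the same compound at 17 element and stimulus pairs, at the time of the largest difference in DMSO; each dot is 1 CKI (red LPS, blue IL-4) and the open diamond is DMSO. All CKIs lie below 0 at Foxp1 -0.3 kb and Maf -0.1 kb after LPS and above 0 at Mitf -128.3 kb, and DMSO lies beyond every CKI at Foxp1 -0.3 kb and Foxp1 +384.6 kb.

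Levels in CKI cells were also set against DMSO, averaged over UT and the times after a stimulus. The same UT libraries enter both fits, here named after LPS and after IL-4. Their counts are therefore not separate results and do not describe stimulated cells alone. After LPS, 2047 of 6322 pairs of CKI and member were called (32.4%), against 36.4% of all pairs, and 846 were called lower (13.4% of the member pairs, against 4.04% of all pairs). After IL-4, 2471 pairs were called (39.1%), against 39.2% of all, and 633 were called lower (10% of the member pairs, against 3.03% of all pairs). The shares were not compared at equal signal level. After LPS, Spi1 -13.9 kb (DMSO mean 2064, 22 CKIs) and Mitf -164.9 kb (418, 29 CKIs) were called only lower. The weak Bcl6 -23.4 kb (14.1, 46 CKIs) and Bhlhe40 +11.7 kb (15.1, 37 CKIs) were called only higher, but Mef2c +28.1 kb (70.4, 14 CKIs) only lower. The ratio of strong to weak CREs had a median of 17.6 in CKI and 75.1 in DMSO libraries, and its part was not tested. The direction also depended on the scaling. Lower calls made up 41.3% of the member calls after LPS and 92.3% after quantile normalization, which left 391 calls. After IL-4 they made up 25.6% and 87.4%, which left 549. Shares over all pairs were not computed after quantile normalization. The compounds fall into 6 runs of adjacent columns, and against the other CKIs of the same run 78 and 76 pairs were called. A shift shared by the CKIs of a run cancels in that comparison, so it cannot show whether such a shift from DMSO is there. The start element of Tfec was lower than DMSO in 53 of 58 CKIs after LPS (median log2 difference -1.06) and in 56 after IL-4. After quantile normalization it was lower in 33 and 39. Against CKIs of the same run it was lower in 2 and 0, with medians of 0.05 and 0.01, which that reference keeps near 0. All but DMSO libraries belong to such a run, so in the comparison with DMSO the compounds and the run cannot be told apart.

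A changed response was tested as the mean over stimulated times minus UT in 1 CKI, against the mean of the other 57. After LPS, 26 of 6322 pairs were called (0.411%), against 0.295% of all pairs, and 21 were called lower (0.332% of the member pairs, against 0.232% of all pairs). Talmapimod had 12 of them (11% of its member pairs, against 12.4% of all its CREs) and Afatinib 9 (8.26%, against 2.36%). Among pairs chosen after their values were seen, the response in Afatinib differed from that in the other CKIs by -2.16 ± 0.51 at Foxp1 +384.6 kb and by -2.09 ± 0.49 at Mitf -29.5 kb. Each of these compounds rests on 1 UT library, and the ratio of strong to weak CREs was 7.02 in that of Talmapimod, the lowest of the CKI UT libraries, and 10.9 in that of Afatinib. Their part in the result was not tested. After IL-4, 16 pairs were called (0.253%), against 0.214% of all, and 4 were called lower (0.0633% of the member pairs, against 0.0747% of all pairs). Of these 4, the response differed by -0.82 ± 0.21 at Runx1 -17.7 kb in Afatinib, by -1.45 ± 0.36 at the start element of Bcl6 in MK2206, by -2.34 ± 0.72 at Foxp1 +384.6 kb in Talmapimod and by -1.12 ± 0.25 at Mitf -184.8 kb in AZD2014. Against CKIs of the same run, 11 pairs were called after LPS and 8 after IL-4.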

How the data were processed

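H3K27ac ChIP-seq reads from 564 libraries had been mapped to mm10 by the authors (Bowtie and SAMtools, per the submitters' processing notes) and counted in CREs defined from ATAC-seq peaks. The deposited values are normalized read counts rounded to whole numbers and were treated as a score, so no count model was used. They give no sequencing depth, which is unknown here. Values were analysed as log2(value + 5) with limma 3.58.1 in R 4.3.3 over all CREs with a mean of at least 10, after tests on simulated data. Time courses used a moderated F-test over the DMSO libraries (adjusted p under 0.01, absolute log2 difference over 1), and CKI comparisons an adjusted p under 0.05 within each CKI and a difference over 0.5. P-values were adjusted by Benjamini-Hochberg. Members, gene lists and elements were chosen with earlier results of these data known. Named were each member's start element (highest DMSO mean within 1 kb of a start), its largest rise and fall after each stimulus, and the 3 CKIs with most calls and the 5 largest pairs per interaction. Replicate numbers did not pair the libraries. Alternatives were other pseudocounts, no filter, quantile normalization, other thresholds, distances and references, a replicate block and leaving out each library. The sequence of 1 element and the value of 1 other gene are not reported here. Of the members, 6 had an entry in the promoter table used here.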

Additional observations from a re-analysis of the deposited data

Results flagged for a closer look

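Responses of single CKIs to LPS differed from the mean of the other CKIs at 26 pairs of CKI and element, and responses to IL-4 at 16, by limma's test of the difference itself. The 5 pairs with the largest difference after LPS were Mitf +13.9 kb in Talmapimod (-3.22 on the log2 scale, adjusted p 0.0194), Foxp1 +362.6 kb in Talmapimod (-2.68, 0.0126), Foxp1 -17.5 kb in Omipalisib (2.56, 0.0401), Foxp1 +10.1 kb in Talmapimod (-2.42, 0.0204) and Mitf -199.5 kb in PF04691502 (2.35, 0.0340). After IL-4 they were Mitf -94.4 kb in Omipalisib (3.60, 0.0106), Bhlhe40 +11.7 kb in Lenvatinib (2.98, 0.0359), Foxp1 +241.3 kb in X396 (2.64, 0.0467), Bhlhe40 +5.1 kb in X396 (2.61, 0.00981) and Mitf -199.5 kb in PF04691502 (2.48, 0.0319). The mean over DMSO libraries was between 6.22 and 45.8 normalized read counts at these elements, and each pair rests on 1 UT library. The 2 values of PF04691502 share that library.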

How the results depend on the processing

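With starts of curated transcripts only, the LPS, IL-4 and LPS against IL-4 counts of 64, 24 and 63 became 41, 14 and 38, and within 10 kb 40, 14 and 38, since fewer elements enter. A threshold of 0.5 gave 41 for IL-4, 7 and 4 called locus sums, and 87 and 37 for the responses in CKI libraries. Under the alternative settings of this section only members were counted, so no share over all CREs or genes stands beside these counts. Quantile normalization and the 10 kb distance each gave 5 locus sums after LPS. CKI against DMSO went from 2047 (LPS) and 2471 (IL-4) to 391 and 549 after quantile normalization, 190 and 289 against the mean of all compounds, and 78 and 76 against the same run. A shift shared by the compounds is largely removed by taking all compounds, or those of the same run, as the reference. Without replicate 1 or 2 of DMSO the counts against DMSO were 1470 to 1636 and 2017 to 2137. Interactions went from 26 to 6 (quantile) and 11 (same run) after LPS, and from 16 to 9 (pseudocount 20) and 8 (same run) after IL-4. Spi1 -13.9 kb turned to -0.14 after LPS and to -0.24 for LPS against IL-4 after quantile normalization. The cause of these shifts was not tested. Leaving out 1 library gave 57 to 67, 19 to 25 and 61 to 66 calls and no change of sign, and 3 and 1 locus sums throughout. At Mitf -199.5 kb the IL-4 call was lost in 8 of 10 such fits, and at Bcl6 -23.4 kb without either replicate at 0.5 h or replicate 2 of UT (0.81).

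Same-numbered replicates did not deviate together (36 correlations from -0.0873 to 0.0664), and fits with the replicate block gave 63, 24 and 63 calls and 3 and 1 locus sums. Of 1581 values of named elements, 1512 kept direction and call, 35 lost and 32 gained a call and 2 reversed. With 2 libraries per DMSO group, mostly 1 per CKI group and unknown depth, small differences at low CREs could not be resolved.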
